A study of Mus musculus with 6 samples.

Results

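The BCL2 family was described in cultured mouse ovary through 10 genes, taken as every row of the authors' FPKM table whose symbol is Bcl2, Bcl2l1, Bcl2l10, Mcl1, Bax, Bak1, Bid, Bbc3, Bcl2l11 or Pmaip1. All 10 symbols were found once among 26329 genes. The first 4 were taken as anti-death members and the other 6 as pro-death members. RNA sequencing had been done on 3 ovary libraries cultured with the solvent DMSO (Control) and 3 cultured with ISRIB dissolved in DMSO, so that all libraries shared the solvent. ISRIB is a small molecule that activates the translation initiation factor eIF2B and so relieves the integrated stress response. Dose, length of culture, strain and age of these cultured ovaries were not given in the sources used here, and nothing says whether replicates came from separate animals. All p-values therefore set a difference against the spread of these libraries, and that spread may be technical. FPKM are fragments scaled to gene length and library size.

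BCL2 family proteins decide at the outer mitochondrial membrane whether a cell starts apoptosis. BAX and BAK form pores that release cytochrome c, the anti-death members hold them in check, and BH3-only proteins (BID, PUMA from Bbc3, BIM from Bcl2l11 and NOXA from Pmaip1) relieve that check or activate the pore formers. In the ovary the balance sets how many oocytes of the reserve survive, and in resting oocytes with damaged DNA the p53 relative TAp63 induces PUMA and NOXA. Mouse Bcl2l10, also called Diva or Boo, is an ovary-rich member whose protein has been described in both protective and death-promoting roles.

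No member passed the test for a difference between ISRIB and Control. The test was limma on log2(FPKM + 0.5) over the 12922 genes with a mean of at least 1 FPKM, which all 10 members reached, and a call needed a Benjamini-Hochberg adjusted p under 0.05. The background was 0.00% of all genes called, so 0 of 10 members is what the whole table gave. At an unadjusted p under 0.05 limma gave 2 members, Bcl2l10 and Bax, against 16.4% of all genes. Both were higher in ISRIB, where 8.71% of all genes were higher and 7.73% lower by that rule. In the same 2 members the lowest ISRIB library exceeded the highest Control library, and 0 of 10 showed the opposite, against 10.8% and 12.0% of all genes. The median log2 fold change was 0.02 over the members and 0.01 over all genes tested.

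Promoter sequence is shown for Bax, the pro-death member with the smallest p, and for Bcl2, the anti-death gene it is usually set against. The windows are the 250 bases before the RefSeq start in GRCm38.p6, written on the strand of the gene, 5′ to 3′. Bax lies at chr7:45466899-45467148 and Bcl2 at chr1:106714291-106714540, both on the minus strand. Capitals mark matches on either strand to CACGTG (an E-box), TGACG (the core of a cAMP response element), TGATGNAA (the core of the C/EBP-ATF element that ATF4 uses), TAATTG (a NOBOX-type homeobox site) or TATAAA. These motifs do not overlap in the printed windows.
Bax: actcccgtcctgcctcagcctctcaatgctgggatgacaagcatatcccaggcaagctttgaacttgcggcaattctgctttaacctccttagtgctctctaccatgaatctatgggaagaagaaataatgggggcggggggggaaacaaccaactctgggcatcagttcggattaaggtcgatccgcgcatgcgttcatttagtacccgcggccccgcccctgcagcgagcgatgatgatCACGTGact
Bcl2: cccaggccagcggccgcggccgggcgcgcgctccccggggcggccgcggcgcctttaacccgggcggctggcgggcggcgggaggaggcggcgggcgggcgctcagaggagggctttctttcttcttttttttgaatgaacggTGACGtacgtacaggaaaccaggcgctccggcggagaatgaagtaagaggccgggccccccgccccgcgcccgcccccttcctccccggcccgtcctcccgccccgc
Bax held the E-box with its first base at −9 from the start, a motif found in 6.02% of 32851 mouse promoter windows, searched over the same 250 bases before the start. Bcl2 held TGACG at −107, which 17.8% of the windows contain. The table had 13 windows for 8 of the members and no entry for Bcl2l10 or Pmaip1. Of those 13 windows, an E-box was also in 1 of the Bbc3 windows (first base at −64) and TGACG in another (−55). TGATGNAA (3.45% of all windows), TAATTG (7.17%), TATAAA (12.4%) and the full p53 site (0.064%) had no match in them. A match is a description of these letters and says nothing of binding.

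Bcl2l10 had the widest difference among the anti-death members. Bcl2l10 (chr9:75347758-75351632, plus strand, GRCm38) measured 6.56, 7.40 and 7.79 FPKM in the Control libraries and 8.61, 9.28 and 11.5 FPKM in the ISRIB libraries. The groups did not overlap, and ISRIB replicate 3 was the highest. The means were 7.25 ± 0.630 and 9.80 ± 1.51 FPKM (SD, n = 3 each). The log2 fold change was 0.40 (SE 0.110, 95% interval 0.15 to 0.66, limma adjusted p = 0.145), a fold of 1.32 with bounds of 1.11 and 1.58. Leaving out single libraries gave 0.29 to 0.49, the lowest without ISRIB replicate 3, and the adjusted p over all alternatives was 0.0914 to 0.343. After a trend of fold change with gene length was removed it was 0.34 (limma adjusted p = 0.276). With all libraries rescaled to the same FPKM sum it was 0.35 (limma adjusted p = 0.138). The values rest on 281 to 510 reads per library, with a counting error of 5.09% at the mean, against a spread of 8.69% in Control and 15.4% in ISRIB.

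Bcl2l1, which codes for BCL-XL, measured 9.37, 8.98 and 9.28 FPKM in Control and 9.33, 9.35 and 10.5 FPKM in ISRIB (chr2:152780668-152831728, minus strand). ISRIB replicate 3 alone stood above the Control range. Its log2 fold change was 0.08 (95% interval −0.07 to 0.22, limma adjusted p = 0.595), and 0.02 without that library. Bcl2 itself (chr1:106538178-106714274, minus strand) measured 7.26, 6.43 and 7.03 FPKM in Control and 6.79, 6.38 and 8.14 FPKM in ISRIB. ISRIB held both the highest and the lowest library, and the groups overlapped. The log2 fold change was 0.03 (95% interval −0.19 to 0.25, limma adjusted p = 0.891), and −0.02 when all libraries were rescaled to the same FPKM sum, as in TPM. Bcl2 overlaps the antisense gene D630008O14Rik over 33103 bases.

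Mcl1, the short-lived anti-death protein that oocytes need to survive, had the most reads of any member, 7135 to 8700 per library (chr3:95658788-95663176, plus strand). It measured 23.4, 25.9 and 25.7 FPKM in Control and 27.4, 24.2 and 23.5 FPKM in ISRIB. The 2 group means were 25.0 ± 1.37 and 25.0 ± 2.07 FPKM (SD, n = 3 each), and the 95% interval of the fold between them was 0.895 to 1.12 (limma adjusted p = 0.9996). Counting error was 1.11%, well below the 5.47% and 8.26% spread within groups. ISRIB replicate 1 was the highest library for Mcl1. The same library also had the highest summed level of 9 immediate early genes, 581 FPKM against 195 FPKM at the lowest ISRIB library and 180 to 377 FPKM in Control, and the part of these genes in the Mcl1 value was not tested. Without ISRIB replicate 1 the log2 fold change of Mcl1 was −0.07.

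**Figure D1:**
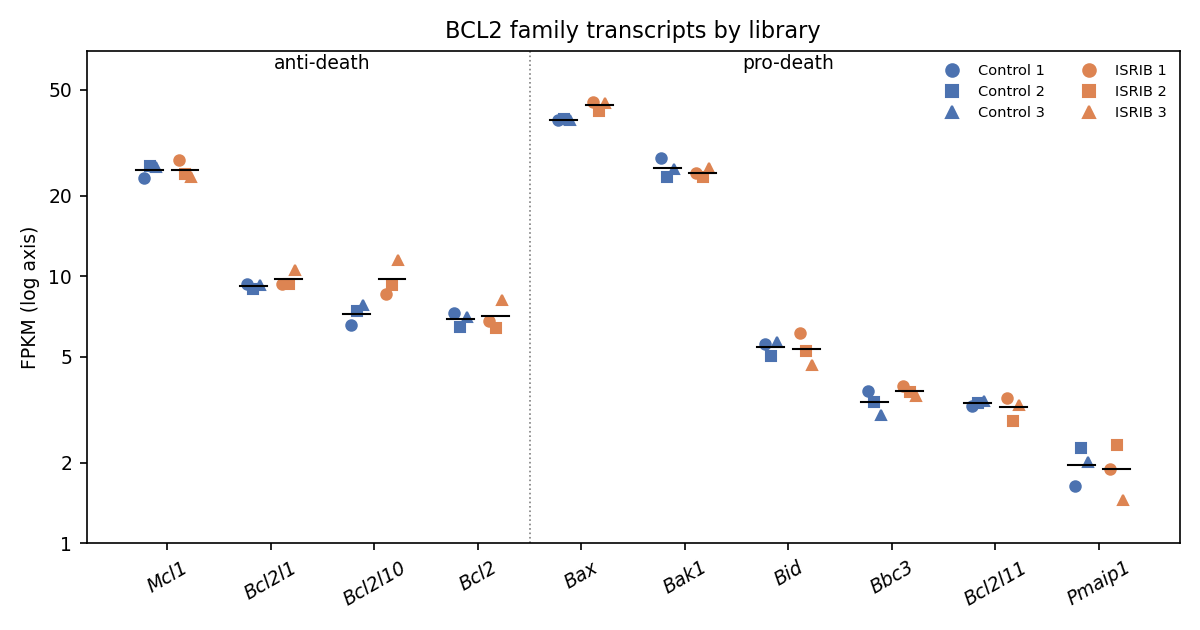
FPKM of the 10 members in each library on a log axis, with Control libraries in blue, ISRIB libraries in orange, a marker shape for each replicate number and black bars at the group means (n = 3 each). The ISRIB points lie wholly above the Control points for Bcl2l10 (8.61 to 11.5 against 6.56 to 7.79 FPKM) and Bax (41.7 to 44.8 against 38.4 to 38.9 FPKM), and the groups overlap for the other 8 members.

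Of the 2 pore formers, Bax was higher in every ISRIB library and Bak1 was not. Bax (chr7:45461697-45466898, minus strand) measured 38.7, 38.9 and 38.4 FPKM in Control and 44.8, 41.7 and 44.4 FPKM in ISRIB. The Control libraries were nearly level, and the lowest ISRIB library was above all of them. The means were 38.7 ± 0.283 and 43.7 ± 1.68 FPKM (SD, n = 3 each), with a log2 fold change of 0.17 (SE 0.0435, 95% interval 0.07 to 0.27, limma adjusted p = 0.128), or a fold of 1.13. The Control spread of 0.733% was below the counting error of 2.65% that its 1268 to 1533 reads allow, so these 3 libraries lay closer together than counting alone would give. Bax is a short gene, and after a trend of fold change with gene length was removed from each library its log2 fold change was 0.10 (limma adjusted p = 0.409). Over all alternatives its adjusted p was 0.104 to 0.409. Bax overlaps the protein-coding gene model Gm45808 on the same strand over 915 bases, and counting by strand would not tell their reads apart.

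Bak1 (chr17:27019810-27029009, minus strand) measured 27.7, 23.5 and 25.3 FPKM in Control and 24.3, 23.6 and 25.5 FPKM in ISRIB. Control replicate 1 was the highest library, and the ISRIB range lay inside that of Control. ISRIB minus Control gave a log2 fold change of −0.06 (95% interval −0.21 to 0.10, limma adjusted p = 0.717), and 0.0037 without Control replicate 1. Bak1 lies wholly within Ggnbp1, a gene on the opposite strand that measured 4.43 FPKM in Control and 5.29 FPKM in ISRIB, and since the strand setting of the counting is not given, reads of the 2 genes may not be told apart.

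The BH3-only members were the lowest of the 10 by deposited FPKM, and none of the 4 had groups that stood apart. Bbc3 (PUMA, chr7:16308393-16318205, plus strand) measured 3.72, 3.39 and 3.02 FPKM in Control and 3.89, 3.68 and 3.57 FPKM in ISRIB. Its ISRIB range was narrow and overlapped Control only through Control replicate 1. For PUMA mRNA the log2 fold change was 0.12 (95% interval −0.08 to 0.33, limma adjusted p = 0.530), ranging from 0.06 to 0.19 when single libraries were left out. The lower bound corresponds to a fold of 0.944, so a reduction of PUMA mRNA beyond about that size lies outside the 95% interval.

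Bcl2l11 (BIM, chr2:128126038-128162547, plus strand) measured 3.26, 3.35 and 3.42 FPKM in Control and 3.51, 2.87 and 3.31 FPKM in ISRIB. ISRIB replicate 2 was low and the other libraries were close together. The log2 fold change was −0.05 (95% interval −0.25 to 0.16, limma adjusted p = 0.829), and 0.02 without that library. Bid (chr6:120891930-120916853, minus strand), which caspase-8 cleaves to link death receptors to mitochondria, measured 5.56, 5.04 and 5.67 FPKM in Control and 6.12, 5.24 and 4.66 FPKM in ISRIB. The ISRIB libraries enclosed the Control range on both sides, with replicate 1 highest and replicate 3 lowest. For Bid the log2 fold change was −0.03 (95% interval −0.26 to 0.21, limma adjusted p = 0.915). Its end overlaps Bcl2l13, a family gene on the opposite strand, over 913 bases.

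Pmaip1 (NOXA, on chromosome 18) was the least abundant member and the least precise. It measured 1.64, 2.27 and 2.01 FPKM in Control and 1.90, 2.34 and 1.45 FPKM in ISRIB, from 139 to 232 reads per library. ISRIB replicate 2 was the highest library and ISRIB replicate 3 the lowest. The log2 fold change was −0.05 with a 95% interval of −0.42 to 0.32 (limma adjusted p = 0.898), so folds between 0.747 and 1.25 were inside the interval and a change of that size was not detectable here. Within groups Pmaip1 varied by 15.9% and 23.5%, against a counting error of 7.25%.

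**Figure D2:**
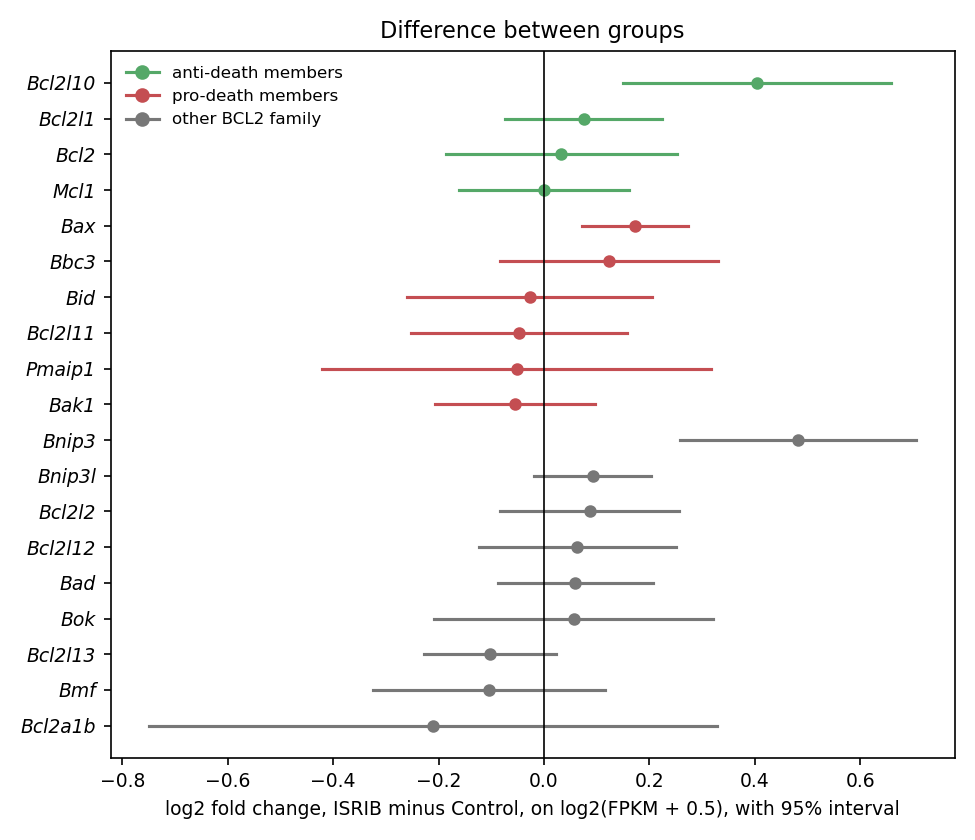
Log2 fold change of ISRIB minus Control on the log2(FPKM + 0.5) scale, with the 95% interval from limma, for the anti-death members (green), the pro-death members (red) and 9 other tested genes of the family (grey). The intervals of Bcl2l10 (0.15 to 0.66), Bax (0.07 to 0.27) and Bnip3 (0.26 to 0.71) lie above 0 before adjustment, and none of the 19 genes passed after it.

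The order of levels within the family depends on gene length. By deposited FPKM the Control order was Bax (38.7), Bak1 (25.5), Mcl1 (25.0), Bcl2l1 (9.21), Bcl2l10 (7.25), Bcl2 (6.91), Bid (5.43), Bbc3 (3.38), Bcl2l11 (3.34) and Pmaip1 (1.97). The ranges of Bak1 and Mcl1, of Bcl2l10 and Bcl2, and of Bbc3 and Bcl2l11 overlapped, and the other neighbours in that order had separate ranges. In ISRIB the neighbours Bcl2l10 (9.80 FPKM) and Bcl2l1 (9.74 FPKM) overlapped, whereas in Control Bcl2l10 lay wholly below Bcl2l1. The length that the deposited FPKM imply was 8832 bases for Mcl1, against 3418 bases of merged exons in GENCODE M21, a ratio of 2.58, and the authors' own lengths were not given in the sources used here. This ratio was 1.91 for Bbc3, 0.603 for Bax and 1.02 for Bcl2l10. For Mcl1 the implied length exceeds the whole gene (chr3:95658788-95663176), introns included, so no transcript of this gene model can have it. The deposited order with Bax first rests on that length. When FPKM were recomputed from the reads with the GENCODE lengths, an alternative chosen after seeing the data, Mcl1 was the most abundant member at 64.6 ± 3.54 FPKM in Control, above Bax at 23.3 ± 0.170 FPKM (SD, n = 3 each). Bbc3 (6.45 FPKM) then lay above Bcl2 (5.61 FPKM) in Control, with overlapping ranges, so the BH3-only members were not all the lowest. The reads used were counted on the authors' annotation, which is not known, and may include reads outside the GENCODE models. Neither order is therefore settled here. The choice of length does not touch the difference between groups for a given gene, apart from the weight of the pseudocount.

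**Figure D3:**
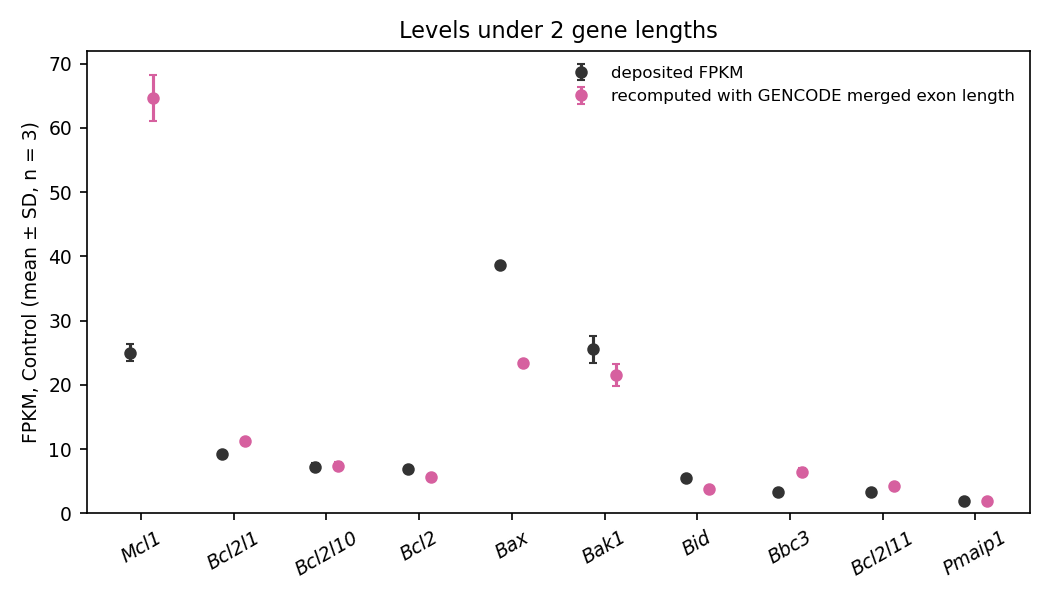
Mean FPKM of the members in Control (error bars, SD, n = 3), as deposited (black) and recomputed with merged exon lengths of GENCODE M21 (pink). Mcl1 moves from 25.0 to 64.6 FPKM and Bax from 38.7 to 23.3 FPKM, so that the most abundant member differs between the 2 lengths.

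Ratios between pro-death and anti-death members are given as descriptions, with no test. The ratio of Bax to Bcl2 FPKM was 5.32, 6.05 and 5.46 in Control and 6.60, 6.54 and 5.46 in ISRIB. ISRIB replicate 3 sat within the Control range, with the highest Bcl2 value of all libraries. The summed FPKM of the 6 pro-death members was 1.73, 1.57 and 1.56 times that of the 4 anti-death members in Control and 1.62, 1.62 and 1.54 times in ISRIB, and the groups overlapped. With GENCODE lengths the sums gave ratios of 0.748, 0.659 and 0.661 in Control and 0.678, 0.696 and 0.695 in ISRIB, below 1 in every library. Which side holds more mRNA thus depends on the length given to Mcl1. The ratios above 1 rest on an implied Mcl1 length that exceeds its whole gene. Those below 1 rest on reads of the authors' unknown annotation divided by GENCODE lengths. The share of Bcl2l10 in the anti-death sum was 14.1%, 15.2% and 15.6% in Control and 16.5%, 18.9% and 21.4% in ISRIB by deposited FPKM. With GENCODE lengths it was 7.90%, 8.33% and 8.68% in Control and 9.10%, 10.7% and 12.7% in ISRIB. ISRIB libraries had the higher share on both scales.

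Bcl2l10 was set against oocyte markers, since in bulk ovary fewer or more cells of a type and less or more RNA per cell cannot be told apart. Markers of growing oocytes were higher in ISRIB in 11 of 11 tested genes, with a median log2 fold change of 0.20, and markers of oocytes of all stages in 3 of 10, with a median of −0.09. Of all 12922 genes tested, 6696 were higher. None of these markers passed the limma test. The list called all-stage held Ddx4, Dazl, Figla, Nobox, Sohlh1, Lhx8, Kit, Sycp3, Tdrd1 and Mael. Whether these genes mark oocytes of all stages equally was not tested, so their mean is not a measure of oocyte number. The secreted oocyte protein gene Oosp1, the growing-oocyte marker with the largest log2 fold change (0.42) and a level like that of Bcl2l10, measured 5.74, 5.28 and 5.72 FPKM in Control and 6.23, 7.43 and 9.61 FPKM in ISRIB, with ISRIB replicate 3 again the highest. Among the all-stage markers, the log2 fold changes ran from −0.26 for the receptor gene Kit to 0.11 for the transcription factor gene Figla. Kit measured 87.8, 94.0 and 92.2 FPKM in Control and 78.7, 82.6 and 68.6 FPKM in ISRIB. Kit and Tdrd1 had all ISRIB libraries below Control, while the germ cell helicase gene Ddx4 stayed between 15.8 and 16.6 FPKM. Of the 11 growing-oocyte markers, 4 (Zp3, Ooep, Npm2 and Oosp1) had all ISRIB libraries above Control. Over all genes, 12.0% lay wholly below and 10.8% wholly above.

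Relative to the mean of the all-stage markers, Bcl2l10 stood at −2.56, −2.52 and −2.37 in Control and −2.21, −2.15 and −1.59 in ISRIB on the log2 scale. The groups did not overlap, and the difference was 0.50 (two-sided exact permutation p = 0.1, the smallest that 3 libraries against 3 allow). It was 0.30 without ISRIB replicate 3, which had both the highest Bcl2l10 level and the lowest all-stage marker mean. Relative to the growing-oocyte markers, Bcl2l10 stood at −3.83, −3.82 and −3.69 in Control and −3.57, −3.71 and −3.44 in ISRIB. There the groups overlapped, and the difference was 0.21 (two-sided exact permutation p = 0.2), beside 0.40 for Bcl2l10 alone. These were 2 comparisons of 1 gene, and the Benjamini-Hochberg adjusted value of both is 0.2.

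**Figure D4:**
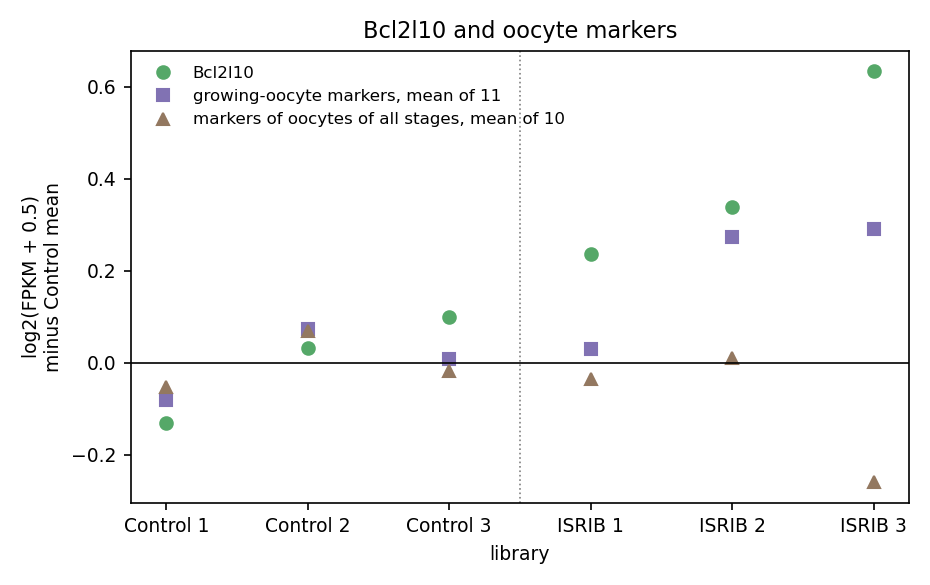
Level of Bcl2l10 (green circles), mean of 11 growing-oocyte markers (purple squares) and mean of 10 markers of oocytes of all stages (brown triangles) in each library, as log2(FPKM + 0.5) minus the Control mean. In ISRIB replicate 3 Bcl2l10 is at its highest while the all-stage markers are at their lowest, and in ISRIB replicate 1 Bcl2l10 is above all Control libraries while both marker means are near their Control mean.

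Different libraries were highest for different members. ISRIB replicate 1 was the highest library for 5 members (Mcl1, Bax, Bcl2l11, Bbc3 and Bid), and ISRIB replicate 3 for 3 (Bcl2, Bcl2l1 and Bcl2l10) while it was the lowest for Pmaip1 and Bid. On the log2 scale the span from the lowest to the highest library was 0.77 for Bcl2l10, 0.54 for Pmaip1, 0.36 for Bid and 0.33 for Bcl2, and 0.22 for Mcl1 and for Bax. The genes most like a member were those with the smallest root mean square difference of centred log2 values over the 6 libraries. For Bcl2l10 they were Carmn (0.0333), Hhip (0.0529) and Fbxw24 (0.0546), where the median gene was at 0.259. For Bax they were Ssr2 (0.0164), Trim13 (0.0227) and Pex5 (0.0232), and for Mcl1 they were Tmem69 (0.0121), Isy1 (0.0171) and Wdr3 (0.0200), against medians of 0.130 and 0.123. With 6 libraries and 12244 genes compared, this likeness is a description only.

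**Figure D5:**
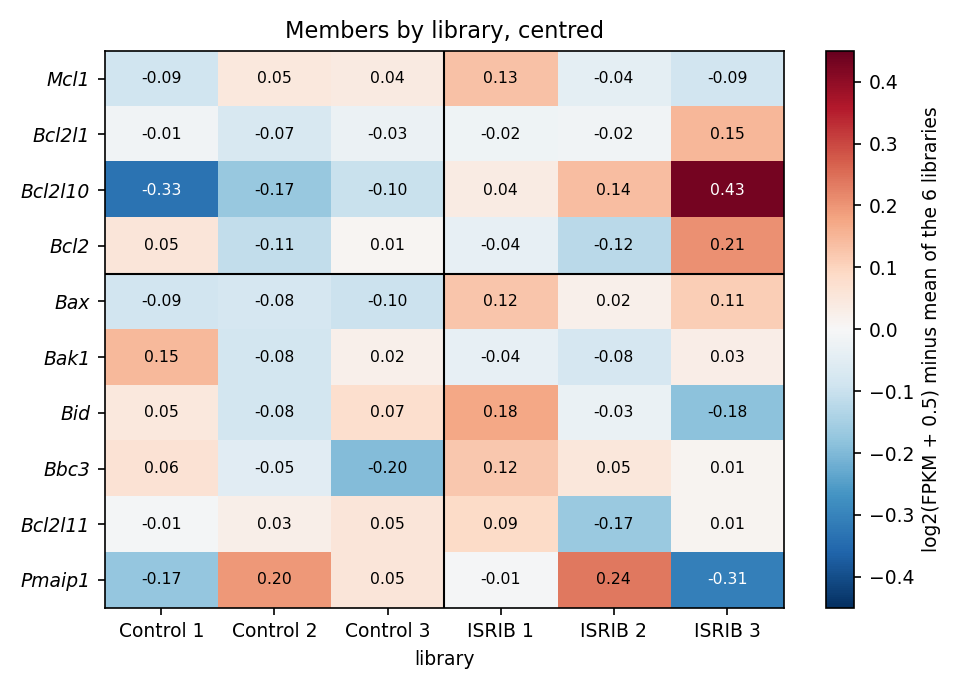
Level of each member in each library as log2(FPKM + 0.5) minus its mean over the 6 libraries, with red for higher and blue for lower, anti-death members above the horizontal line and Control left of the vertical line. Only Bcl2l10 and Bax change colour at the line between Control and ISRIB in every library, and ISRIB replicate 3 holds the highest Bcl2l10 (0.43) beside the lowest Pmaip1 (−0.31).

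Of 15 other genes of the BCL2 family, 9 were abundant enough to be tested, 6 higher and 3 lower in ISRIB, with a median log2 fold change of 0.06 and 0 called. Bnip3, a mitochondrial BH3-like gene that low oxygen induces, had the widest difference, with 43.0, 34.6 and 44.3 FPKM in Control and 53.8, 54.8 and 61.6 FPKM in ISRIB. The groups did not overlap, and the log2 fold change was 0.48 (SE 0.0972, limma adjusted p = 0.0995). Its relative Bnip3l had a log2 fold change of 0.09, the anti-death gene Bcl2l2 (BCL-W) also 0.09, and Bcl2l13 of −0.10 with all ISRIB libraries below Control. The 6 genes below the filter, among them Bik, Hrk and Bcl2a1a, had group means under 1 FPKM.

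Downstream of the pores, 19 genes of the caspase cascade and its inhibitors were tested, 12 higher and 7 lower, with a median log2 fold change of 0.02 and 0 called. Htra2, a mitochondrial protease that is released with cytochrome c, measured 15.4, 12.6 and 14.2 FPKM in Control and 17.4, 16.0 and 17.6 FPKM in ISRIB (log2 fold change 0.26, limma adjusted p = 0.174). Casp2, a caspase linked to oocyte loss, measured 22.5, 22.2 and 23.2 FPKM in Control and 19.9, 21.3 and 20.3 FPKM in ISRIB (−0.14, limma adjusted p = 0.215). These were the 2 of 19 genes whose groups did not overlap, a share no higher than that of all genes (10.8% above and 12.0% below). The inhibitor Birc5 and the initiator Casp9 had log2 fold changes of 0.13 and −0.11.

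Of 14 tested regulators of the members, 6 were higher and 8 lower, with a median log2 fold change of −0.05 and 0 called. All ISRIB libraries lay below all Control libraries for 6 of them and above for 1, where 12.0% of all genes lay below and 10.8% above. These counts and the values below were taken without removal of the trend of fold change with gene length. The part of that trend in them was not tested. Huwe1, the ligase that marks MCL1 for degradation, measured 53.7, 52.3 and 51.3 FPKM in Control and 46.2, 45.7 and 44.0 FPKM in ISRIB (log2 fold change −0.21, limma adjusted p = 0.0995). Usp9x, the deubiquitinase that spares MCL1, measured 33.7, 34.7 and 32.1 FPKM in Control and 30.1, 28.0 and 25.0 FPKM in ISRIB (−0.27, limma adjusted p = 0.134). Fbxw7, part of another ligase that targets MCL1, measured 8.72, 8.96 and 9.04 FPKM in Control and 8.46, 8.26 and 6.75 FPKM in ISRIB (−0.18, limma adjusted p = 0.339), and is named after its values were seen. The groups of these 3 genes did not overlap. Their products act on MCL1 protein, which was not measured here. Foxo3, which drives Bcl2l11 and Bbc3 in several cell types, measured 46.3 ± 0.929 FPKM in Control and 40.9 ± 1.78 FPKM in ISRIB (SD, n = 3 each, −0.18, limma adjusted p = 0.134). Ddit3, which codes for CHOP, a stress factor that acts on several BCL2 family genes, measured 8.23 ± 1.15 and 11.2 ± 0.582 FPKM (0.43, limma adjusted p = 0.119). Trp63, named after its values were seen because it acts on Bbc3 and Pmaip1 in oocytes, measured 13.5, 14.8 and 14.5 FPKM in Control and 13.2, 13.2 and 9.65 FPKM in ISRIB (−0.25, limma adjusted p = 0.329). ISRIB replicate 3 was the lowest library for Trp63 and for Pmaip1. For Bbc3 it was the lowest ISRIB library (3.57 FPKM), though above 2 of 3 Control libraries. The same library also had the lowest mean of the all-stage oocyte markers. A link between Trp63 and these genes was not tested.

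Libraries held 34474818 to 38002131 recovered reads. The FPKM of all genes summed to 333172 to 339809 in Control and to 348086 to 350176 in ISRIB. TPM rescaling, among the alternatives, removes this difference. Markers of oocytes, granulosa cells, stroma and endothelium were present in all libraries, but the granulosa markers Fshr and Cyp19a1, 2 of 7 immune markers and 3 of 6 red cell markers were below 1 FPKM on average. Summed red cell markers ranged from 40.5 to 75.3 FPKM in Control and from 72.4 to 328 FPKM in ISRIB, the highest in ISRIB replicate 1, and the sum of endothelial markers from 146 to 161 FPKM in Control and from 123 to 139 FPKM in ISRIB. The part of these markers in the member values was not tested. Gene-level values do not separate isoforms such as the long and short forms of Bcl2l1 and Mcl1.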

How the data were processed

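The authors deposited FPKM for 26329 genes in 6 libraries, 1 column each, not pooled. Tools named in the submitters' processing notes, without roles, are HISAT2, HTSeq, DESeq2, fastp and R 3.2.0, with the build mm10. Annotation, gene lengths and strand setting were not given in the sources used here. Groups came from the sample titles. The members and lists were chosen with earlier results of these data known.

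Whole reads were worked back from the FPKM for 26327 genes (99.99%, tolerance 0.01 read). Values of log2(FPKM + 0.5) were tested with limma 3.58.1 in R 4.3.3 (group as the only term, variances moderated along an intensity trend, two-sided p, Benjamini-Hochberg over 12922 genes), and fold changes on this scale understate those of low genes. Both steps were tested on simulated data. Positions came from GENCODE M21 and promoters from RefSeq (GRCm38.p6). Named were all members, up to 4 genes of each other list by smallest p, and the 3 genes most like Bcl2l10, Bax and Mcl1, without predicted and clone-named genes. Oocyte markers were named after their values were seen. Counting errors are the square root of the reads and cover counting only. Alternatives were other pseudocounts, filters, scalings and variance models, array weights, a replicate block, leaving out libraries, voom on the reads and removal of the trend with implied gene length (loess, span 0.5). Python 3.11.15 made tables and figures.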

Additional observations from a re-analysis of the deposited data

How the results depend on the processing

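In every alternative run, 0 members passed, and Bcl2l10, Bax, Bcl2l1 and Bbc3 kept a positive log2 fold change. Over all genes 0 passed in limma (2125 at an unadjusted p under 0.05), 8 with a mean of at least 5 FPKM, 19 with TPM rescaling, 16 with array weights, 11 with the replicate block and 120 with voom on the recovered reads; the cause was not tested. TPM rescaling reversed Bcl2 (−0.0167) and Mcl1 (−0.0516), quantile normalization Mcl1 (−0.0111), array weights Mcl1 (−0.0300) and Pmaip1 (0.0041), voom Mcl1 (−0.0004) and removal of the length trend Bcl2l11 (0.0004). Leaving out single libraries gave −0.0628 to 0.1012 for Bcl2, −0.0651 to 0.0429 for Mcl1, −0.1110 to 0.0037 for Bak1, −0.1015 to 0.0247 for Bcl2l11, −0.1829 to 0.0895 for Pmaip1 and −0.1216 to 0.0586 for Bid, so the sign of these 6 rests on single libraries. Same-numbered libraries had correlated deviations of −0.190, −0.0909 and 0.192, and Control replicate 2 went best with ISRIB replicate 1 (0.355), so the numbers were not taken as pairs. With 139 to 232 reads per library, Pmaip1 had the largest counting error of the members (7.25%), which was still below its spread within each group. The stricter filter left out Bbc3, Bcl2l11 and Pmaip1.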
